A study of Mus musculus with 9 samples.

Results

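The enzymes of cholesterol synthesis described here are 9 genes: Hmgcs1, Mvk, Pmvk, Mvd, Idi1, Fdps, Fdft1, Sqle and Msmo1. They were chosen by symbol, as 9 of the 18193 genes to which the arrays gave a probe set with a single symbol, and are taken in the order of the pathway. They hold 21 probe sets, short groups of probes that each read a stretch of a transcript. RNA was measured on 9 Affymetrix mouse expression arrays. The 3 preSC arrays hold cultured preneoplastic neuroendocrine cells, which came from lungs of mice with conditional alleles of Rb, p53 and p130 deleted by Adeno-Cre virus. These mice were of a mixed C57BL/6 and 129/Sv background. The transduced arrays hold preSC infected with a retrovirus for L-Myc (2 arrays), C-Myc (2 arrays) or N-Myc (2 arrays), so that every group carries the Rb, p53 and p130 deletion. All were grown in RPMI1640 with bovine growth serum. The labels give polyA RNA for preSC and L-Myc and total RNA for C-Myc and N-Myc, while the extraction they describe is of total RNA throughout. The replicates are called biological, but no separate cultures, clones or animals are named, so each p-value measures the spread between these arrays, which may be technical.

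Cells make cholesterol from acetyl-CoA through mevalonate. Mevalonate is phosphorylated and decarboxylated to isoprenoid units, these are joined to farnesyl diphosphate and then to squalene, and squalene is oxidised, closed into a ring and trimmed to cholesterol. Most genes of the route are targets of SREBP2, a membrane-bound factor, encoded by Srebf2, that SCAP carries out of the endoplasmic reticulum when sterols are low and that INSIG proteins hold back when sterols are high. The same route supplies the farnesyl and geranylgeranyl groups that anchor small GTPases to membranes, and dolichol and ubiquinone. The study compared these cells, which its design text calls precursors of small cell lung cancer (SCLC), with the same cells overexpressing a MYC factor.

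Several arrays stood apart from their group, and the group names below are those of the labels. C-Myc 1 and C-Myc 2 differed by more than 2-fold at 3032 probe sets, whereas C-Myc 2 differed from L-Myc 2 at 41, and C-Myc 1 differed from the N-Myc arrays at 193 and 182. L-Myc 1 and L-Myc 2 differed so at 2249 probe sets, and preSC 3 differed from the other preSC arrays at 1807 and 1907. N-Myc 1 and N-Myc 2 differed so at only 13 probe sets, and preSC 1 and preSC 2 at 29. The transduced gene was above preSC in its own group at 1 or more of its probe sets, but not in that group alone: Myc read 11.22 and 10.68 in C-Myc, 11.96 and 11.40 in N-Myc and 5.63 to 8.13 elsewhere, in log2 units. Mycl at its probe set 1422087_at read 11.79 and 12.74 in L-Myc, 8.52 in C-Myc 2 and 5.39 to 7.24 in the other arrays. Mycn read 9.05 and 8.46 in N-Myc and at most 6.39 elsewhere at 1425922_a_at, while at 1425923_at it read 11.07 to 13.54 in all 6 transduced arrays and 6.37 to 6.89 in preSC. The values with C-Myc are therefore also given without C-Myc 2 for each enzyme and for each pathway gene called with C-Myc.

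The preSC arrays also differed from all 6 transduced arrays in signs of RNA preparation. The 18S ribosomal RNA signal lay at 12.88 to 13.91 in preSC and 8.22 to 9.35 in the others, and the 5′ minus 3′ difference of the Dap spike-in was -3.66 to -3.40 in preSC and -1.68 to -1.51 in the others. That of Actb was -0.85 to -0.62 and -0.31 to -0.20. Every comparison with preSC coincides with this shift, and the shift and the groups cannot be told apart. All 9 neuroendocrine markers measured were above the filter on dim signals, with summed levels of 15.19 to 15.23 in preSC and 14.69 to 15.01 in the transduced arrays. Ddc, the brightest (13.38 to 14.07), weighed most in this sum, and the markers split. Syp and Uchl1 rose in each transduced group, and Chga, Chgb and Scg2 fell in each. Ddc, Ncam1 and Scg3 fell with C-Myc and N-Myc, and Insm1 passed in none. The median difference of the list was -0.58 with L-Myc, -0.87 with C-Myc and -1.09 with N-Myc. Of the markers of club, alveolar and ciliated cells 5 of 6 were above it, Scgb1a1 being below. Their summed level was 10.92 in C-Myc 1 and 10.88 to 11.30 in N-Myc, and 8.63 to 9.53 in the other 6 arrays. Sftpc, the surfactant protein of alveolar type II cells, carried this sum: it read 10.68 in C-Myc 1, 10.59 and 11.10 in N-Myc and 6.06 to 8.42 in the others. Sftpb (6.52 to 6.87), Foxj1 (5.27 to 5.60) and Hopx (6.29 to 7.26) spanned these ranges over all 9 arrays, Ager fell in all 3 transduced groups, and the median difference of the list with N-Myc was 0.01. Sftpc was thus high in the arrays in which most of the enzymes were highest, and its part in those values was not tested. Of the markers of fibroblasts 2 of 6 (Col1a1, Col1a2, Col3a1 and Lum below), of endothelium 2 of 6 (Pecam1, Cdh5, Tek and Emcn below) and of leukocytes 1 of 5 (Ptprc, Cd68, Itgam and Tyrobp below) were above the filter. The summed fibroblast level ran from 7.65 to 7.69 in N-Myc, 7.59 to 9.92 in C-Myc, 7.78 to 10.47 in L-Myc and 7.92 to 9.60 in preSC. Dcn carried this sum: it read 9.32 in preSC 3, 10.32 in L-Myc 2, 9.69 in C-Myc 2 and 5.29 to 6.86 in the others. Pdgfra read 5.46 to 6.41 in all arrays. Dcn was thus high in the arrays in which the enzymes, each centred on its own mean, were lowest on average (-0.21, -0.14 and -0.29). Its part in those values was not tested. The summed endothelial level was 10.71 to 10.80 in preSC and 8.03 to 9.07 in the transduced arrays, a difference carried by Vwf (10.57 to 10.66 and 6.95 to 8.63), while Kdr read 5.84 to 6.31 in all arrays. The summed level of leukocytes was 7.19 to 7.59 in all arrays. Fewer cells of a type and less RNA per cell cannot be told apart in such samples.

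The 250 bases before the gene start, from RefSeq on the build GRCm38.p6, show what these genes share near their starts. A window was found for 6 of the 9 genes (Hmgcs1, Mvk, Pmvk, Mvd, Idi1 and Msmo1) and 7 windows in all, Pmvk having 2. The windows of Hmgcs1, Idi1 and Msmo1 are shown because these genes rose with N-Myc, and that of Pmvk because it fell. Each is written 5′ to 3′ on the gene's strand, and capitals mark CCAAT (the box bound by NF-Y, in capitals also as its complement ATTGG) and TCACNCCAC, a form of the sterol regulatory element bound by SREBP.
Hmgcs1, chr13:119690101-119690350, plus strand: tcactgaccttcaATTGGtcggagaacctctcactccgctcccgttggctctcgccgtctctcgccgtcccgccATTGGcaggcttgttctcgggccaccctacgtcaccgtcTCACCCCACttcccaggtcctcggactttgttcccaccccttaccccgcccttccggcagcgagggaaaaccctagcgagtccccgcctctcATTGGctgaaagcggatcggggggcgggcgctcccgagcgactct
Idi1, chr13:8885356-8885605, plus strand: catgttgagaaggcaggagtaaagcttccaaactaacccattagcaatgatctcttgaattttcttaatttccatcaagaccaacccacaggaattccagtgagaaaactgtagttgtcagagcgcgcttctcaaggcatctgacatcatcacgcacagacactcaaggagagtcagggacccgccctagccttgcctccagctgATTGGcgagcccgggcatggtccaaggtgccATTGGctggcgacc
Msmo1, chr8:64733579-64733828, minus strand: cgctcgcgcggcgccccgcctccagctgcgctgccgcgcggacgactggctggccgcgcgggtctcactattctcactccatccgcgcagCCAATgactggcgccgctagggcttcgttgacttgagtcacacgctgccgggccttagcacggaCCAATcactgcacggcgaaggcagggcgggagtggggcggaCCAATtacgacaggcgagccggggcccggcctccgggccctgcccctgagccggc
Pmvk, chr3:89454291-89454540, plus strand: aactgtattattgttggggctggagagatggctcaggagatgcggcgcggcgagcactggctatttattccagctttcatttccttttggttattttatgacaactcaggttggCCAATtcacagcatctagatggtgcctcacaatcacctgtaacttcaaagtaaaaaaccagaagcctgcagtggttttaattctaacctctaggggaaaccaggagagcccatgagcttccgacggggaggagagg

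CCAAT, searched on both strands, was in 6 of the 7 windows and in 33.8% of all 32851 windows of that length. It was there 5 times for Mvk, 3 times for Hmgcs1 and Msmo1, 2 times for Mvd and Idi1, and 1 time in the window of Pmvk shown. TCACNCCAC was in 1 of the 7 windows, that of Hmgcs1, where it begins 137 bases before the start, and in 1.05% of all windows. The E-box CACGTG, which MYC with its partner MAX binds, was in none of the 7 and in 6.02% of all windows. The windows of all genes include several per gene and genes without a protein. A match is a description of letters, and no match says only that the letters are not in these bases.

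Against preSC, some enzymes were higher and others lower in each transduced group. With N-Myc 4 of the 9 rose (Msmo1, Fdps, Idi1 and Hmgcs1) and 1 fell (Pmvk), with C-Myc 1 rose (Idi1) and 2 fell (Pmvk and Fdft1), and with L-Myc none rose and 2 fell (Pmvk and Fdft1). The call is an adjusted p under 0.05 in limma over all 29140 probe sets tested, at the probe set of each gene with the highest mean. By the same rule, 13.3% of the 12976 genes tested rose and 17.5% fell with N-Myc, 10.7% rose and 15.1% fell with C-Myc, and 6.82% rose and 10.1% fell with L-Myc. The median difference of the 9 genes was 0.64 with N-Myc, 0.21 with C-Myc and 0.24 with L-Myc, beside medians over all genes of -0.03, -0.05 and -0.04. The 3 comparisons share the preSC arrays. The RNA label is polyA for preSC and L-Myc and total RNA for C-Myc and N-Myc. In the C-Myc and N-Myc comparisons with preSC, group and label therefore cannot be told apart. Without C-Myc 2, the C-Myc count was 4 higher (Msmo1, Fdps, Idi1 and Hmgcs1) and 1 lower (Pmvk), where 12.5% of genes were higher and 16.2% lower. Without C-Myc 1 it was 3, all lower: Sqle, Pmvk and Fdft1. Without any 1 preSC array the C-Myc count was 1. Without N-Myc 1 no enzyme was called in N-Myc, and without N-Myc 2 it was 1, while without preSC 2 or preSC 3 it was 3. Without L-Myc 2 none was called in L-Myc, and 1 was called without L-Myc 1 or without any 1 preSC array.

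**Figure D1:**
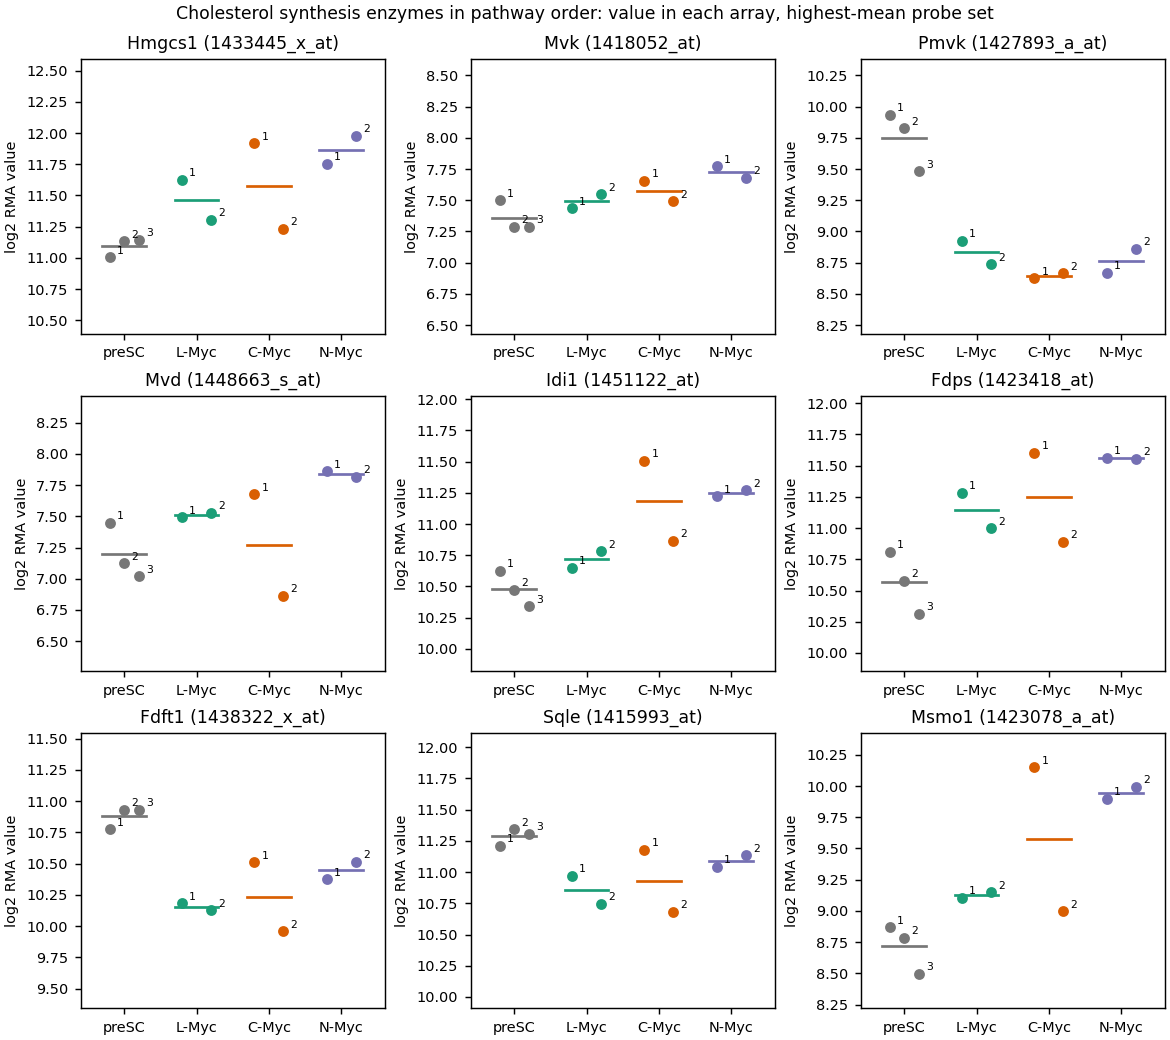
Log2 signal of the enzymes, in pathway order, at the probe set with the highest mean, 1 point per array numbered by replicate, by group, with the bar at the group mean. The C-Myc points lie far apart for Msmo1 (10.15 and 9.0), while all 6 transduced points of Pmvk lie below the preSC points.

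**Figure D2:**
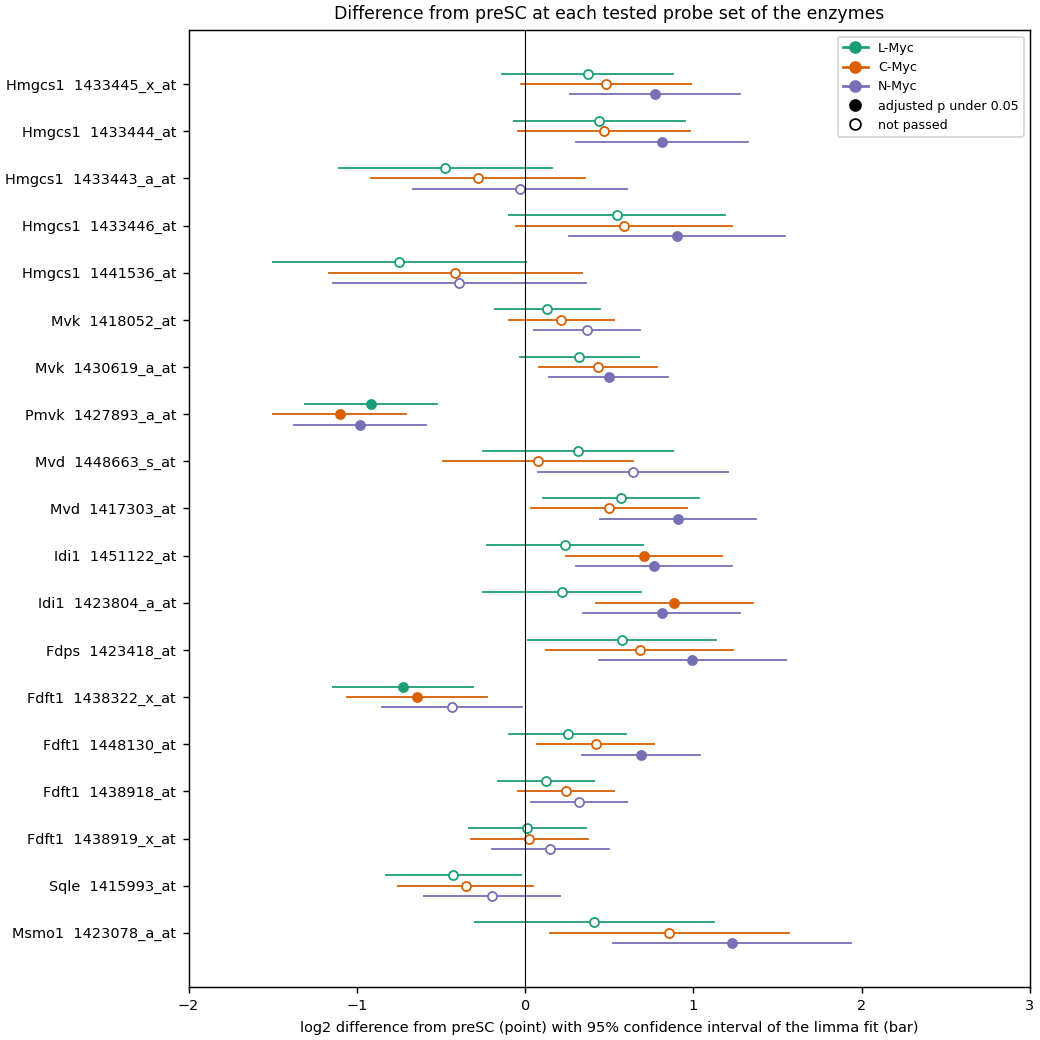
Log2 difference from preSC at each of the 19 tested probe sets of the enzymes (point) with the 95% confidence interval of the limma fit (bar), for L-Myc, C-Myc and N-Myc, filled where the adjusted p is under 0.05. Pmvk lies to the left of 0 in all 3 groups, and the probe sets of Hmgcs1 and of Fdft1 lie on both sides.

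Hmgcs1, the synthase that joins acetoacetyl-CoA and acetyl-CoA to HMG-CoA, has 5 probe sets. At 1433445_x_at it read 11.01, 11.13 and 11.15 in preSC, 11.63 and 11.31 with L-Myc, 11.92 and 11.23 with C-Myc, and 11.75 and 11.98 with N-Myc. All 6 transduced arrays were above all preSC arrays, C-Myc 2 by the least. The rise with N-Myc was 0.77 (SE 0.22, adjusted p = 0.029, 1.71-fold), and 1433444_at and 1433446_at rose there too, by 0.82 and 0.90. With L-Myc and C-Myc the difference was 0.37 and 0.48, which did not pass. The other probe sets did not pass: 1433443_a_at was 10.89 ± 0.04 (SD, n = 3) without virus and 10.86 ± 0.04 (SD, n = 2) with N-Myc, a difference of -0.03 with an interval of -0.66 to 0.61. The dim 1441536_at was -0.39 from preSC in N-Myc, also without passing. The position of each probe set along the transcript was not analysed. Without C-Myc 2, Hmgcs1 was higher with C-Myc by 0.82 (adjusted p = 0.018) at 1433445_x_at. The N-Myc call at that probe set was lost without N-Myc 1 (0.88, adjusted p = 0.091), N-Myc 2 (0.66, adjusted p = 0.17), preSC 1 (0.73), preSC 2 (0.79) or preSC 3 (0.80).

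Mvk, the kinase that puts the first phosphate on mevalonate, has 2 probe sets, of which the dimmer passed in 1 comparison. At 1418052_at it read 7.50, 7.29 and 7.29 in the preSC arrays, 7.43 and 7.55 in L-Myc 1 and 2, 7.66 and 7.49 in C-Myc 1 and 2, and 7.77 and 7.68 in N-Myc 1 and 2. The N-Myc arrays were above preSC, while the L-Myc and C-Myc arrays overlapped with it. The N-Myc difference of 0.37 did not pass (SE 0.14, adjusted p = 0.070). At 1430619_a_at all transduced arrays (6.97 to 7.33) were above preSC (6.59 to 6.87), and N-Myc rose by 0.50 (adjusted p = 0.038), a call lost without either N-Myc array, where the rise was 0.64 and 0.35, and without preSC 2 (0.45) or preSC 3 (0.46). The C-Myc differences, 0.21 and 0.43 at these probe sets, did not pass, and without C-Myc 2 they were 0.30 (adjusted p = 0.21) and 0.47 (adjusted p = 0.11).

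Pmvk, the kinase that adds the next phosphate, was the one enzyme that fell in all 3 transduced groups. Its single probe set read 9.94, 9.83 and 9.48 in preSC, 8.93 and 8.74 with L-Myc, 8.63 and 8.66 with C-Myc, and 8.67 and 8.86 with N-Myc. All 6 transduced arrays lay between 8.63 and 8.93, below the lowest preSC array. The difference was -0.92 with L-Myc (SE 0.17, adjusted p = 0.0088), -1.10 with C-Myc (adjusted p = 0.0035) and -0.98 with N-Myc (adjusted p = 0.0049), which leaves 0.53, 0.47 and 0.51 of the preSC level. In C-Myc, where most enzymes differed between the arrays, Pmvk differed by little (SD 0.03, n = 2). The difference with C-Myc was -1.12 without C-Myc 2, and it was called without any 1 array of its comparison. The fall with L-Myc did not pass without L-Myc 2 (-0.82, adjusted p = 0.059), nor that with N-Myc without N-Myc 1 (-0.89, adjusted p = 0.0502).

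Mvd, the decarboxylase that makes isopentenyl diphosphate, read 7.45, 7.12 and 7.02 in preSC, 7.49 and 7.53 with L-Myc, 7.68 and 6.86 with C-Myc, and 7.86 and 7.82 with N-Myc at 1448663_s_at. C-Myc 2 was the lowest of all 9 arrays and the N-Myc arrays were the highest. The N-Myc difference of 0.64 did not pass (SE 0.24, adjusted p = 0.076). At 1417303_at, where all transduced arrays (6.94 to 7.75) were above preSC (6.66 to 6.87), Mvd rose with N-Myc by 0.91 (SE 0.20, adjusted p = 0.012), a call lost without N-Myc 1 (0.82, adjusted p = 0.089) or N-Myc 2 (0.99, adjusted p = 0.057). Without C-Myc 2 the same probe set was higher with C-Myc by 0.82 (adjusted p = 0.013), and 1448663_s_at differed by 0.48 (adjusted p = 0.11) in place of 0.07 with both arrays.

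Idi1, the isomerase that turns isopentenyl diphosphate into its reactive partner, was the one enzyme to rise with C-Myc with both arrays in. At 1451122_at it read 10.62, 10.47 and 10.34 in the preSC arrays, 10.65 and 10.78 in L-Myc 1 and 2, 11.51 and 10.87 in C-Myc 1 and 2, and 11.22 and 11.27 in N-Myc 1 and 2. Every C-Myc and N-Myc array was above every preSC and L-Myc array. The rise was 0.71 with C-Myc (SE 0.20, adjusted p = 0.033, 1.63-fold) and 0.77 with N-Myc (SE 0.20, adjusted p = 0.022, 1.70-fold), and 0.24 with L-Myc did not pass. The other probe set, 1423804_a_at, rose by 0.89 with C-Myc (adjusted p = 0.015) and 0.81 with N-Myc. Without C-Myc 2 the C-Myc rise at 1451122_at was 1.03 (adjusted p = 0.0055). Without C-Myc 1 it was 0.39 (adjusted p = 0.15), and it also missed the threshold without any 1 preSC array (0.64 to 0.78). The N-Myc rise missed it without N-Myc 1 (0.79), N-Myc 2 (0.74), preSC 2 (0.76) or preSC 3 (0.70).

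Fdps, the synthase that makes farnesyl diphosphate, the last product shared by sterols and prenylated proteins, read 10.81, 10.58 and 10.31 in preSC, 11.28 and 11.0 with L-Myc, 11.60 and 10.89 with C-Myc, and 11.56 and 11.56 with N-Myc at 1423418_at. All transduced arrays were above preSC, C-Myc 2 by the least. The rise with N-Myc was 0.99 (SE 0.24, adjusted p = 0.017, 1.99-fold). The differences of 0.68 with C-Myc (adjusted p = 0.067) and 0.57 with L-Myc did not pass. Without C-Myc 2 Fdps was 1.03 higher with C-Myc (adjusted p = 0.015). The N-Myc call was lost without N-Myc 1 (0.99, adjusted p = 0.094) or N-Myc 2 (1.00, adjusted p = 0.092). Its other probe set, 1438150_at, was dim in every array (3.18 to 3.73) and was not tested.

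Fdft1, the squalene synthase that commits the route to sterols, gave opposite directions at its bright probe sets. At 1438322_x_at it read 10.77, 10.93 and 10.93 in preSC, 10.18 and 10.13 with L-Myc, 10.51 and 9.96 with C-Myc, and 10.38 and 10.51 with N-Myc. All transduced arrays were below preSC. It fell with L-Myc, by a difference of -0.73 (SE 0.18, adjusted p = 0.025), and with C-Myc, by -0.64 (adjusted p = 0.031), while -0.43 with N-Myc did not pass (adjusted p = 0.096). At 1448130_at it read 9.90, 9.92 and 10.01 in the preSC arrays, 10.24 and 10.15 in L-Myc 1 and 2, 10.56 and 10.16 in C-Myc 1 and 2, and 10.60 and 10.66 in N-Myc 1 and 2. There all transduced arrays were above preSC, and the rise with N-Myc was 0.69 (SE 0.15, adjusted p = 0.011). Probe sets whose names end in _x_at can share probes with other transcripts, and which of the readings follows the enzyme cannot be told from these values. The 2 dim probe sets, 1438918_at (5.31 to 5.76) and 1438919_x_at (5.12 to 5.46), did not pass in any comparison. Without C-Myc 2 the C-Myc values were -0.37 (adjusted p = 0.11) at 1438322_x_at and 0.62 (adjusted p = 0.019) at 1448130_at. The fall at 1438322_x_at missed the threshold without L-Myc 1 (-0.75), L-Myc 2 (-0.70) or any 1 preSC array (-0.78 to -0.70) in L-Myc, and without any 1 preSC array (-0.70 to -0.62) in C-Myc. The rise at 1448130_at missed it without N-Myc 1 (0.72) or N-Myc 2 (0.66).

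Sqle, the epoxidase that puts oxygen on squalene, has 1 probe set and passed in no comparison. It read 11.21, 11.34 and 11.31 in preSC, 10.97 and 10.75 with L-Myc, 11.18 and 10.68 with C-Myc, and 11.04 and 11.13 with N-Myc. All transduced arrays were below all preSC arrays, C-Myc 1 by the least. The differences were -0.43 with L-Myc (interval -0.83 to -0.03), -0.35 with C-Myc (interval -0.76 to 0.05) and -0.20 with N-Myc (interval -0.60 to 0.21). The C-Myc value followed the array left out: it was -0.11 without C-Myc 2 (adjusted p = 0.66) and -0.60 without C-Myc 1 (adjusted p = 0.043).

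Msmo1, an oxidase that acts in the removal of methyl groups from the sterol ring, showed the largest rise of the 9 with N-Myc. At 1423078_a_at it read 8.87, 8.79 and 8.50 in preSC, 9.11 and 9.15 with L-Myc, 10.15 and 9.0 with C-Myc, and 9.90 and 10.00 with N-Myc. C-Myc 1 and the N-Myc arrays were high, and C-Myc 2 lay with the L-Myc arrays. The rise with N-Myc was 1.23 (SE 0.31, adjusted p = 0.018, 2.34-fold), and the differences of 0.86 with C-Myc (adjusted p = 0.070) and 0.41 with L-Myc did not pass. Without C-Myc 2 Msmo1 was 1.43 higher with C-Myc (SE 0.19, adjusted p = 0.0026). The N-Myc call was lost without N-Myc 1 (1.28, adjusted p = 0.090) or N-Myc 2 (1.18, adjusted p = 0.11). Its other probe set, 1459627_at, was dim (4.76 to 5.25) and was not tested.

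**Figure D3:**
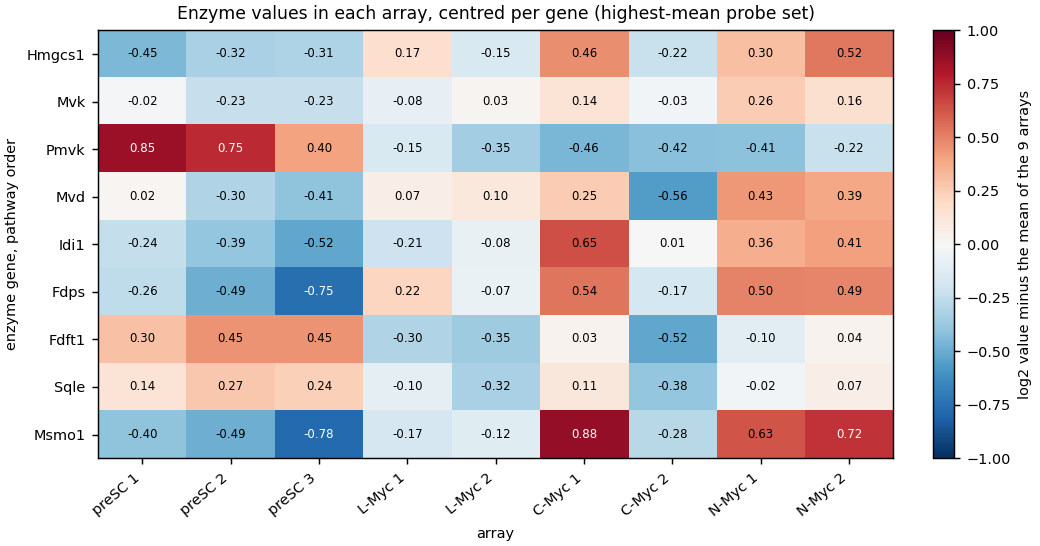
Log2 value of each enzyme at the probe set with the highest mean, minus its mean over the 9 arrays, in colour, with genes in pathway order as rows and arrays as columns. In C-Myc 1 there are 8 of the 9 above their own mean and in C-Myc 2 there is 1.

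Centred on their own means over the arrays, most enzymes were high in C-Myc 1 and the N-Myc arrays and low in C-Myc 2. The mean of the 9 centred values was 0.29 in C-Myc 1, 0.22 in N-Myc 1 and 0.29 in N-Myc 2, and 8, 6 and 8 of the enzymes were above their own mean there. In C-Myc 2 the mean was -0.29 with 1 enzyme above. In L-Myc it was -0.06 and -0.14 with 3 and 2 above, and in preSC -0.01, -0.08 and -0.21 with 4, 3 and 3 above. By this measure the preSC and L-Myc arrays overlapped and the N-Myc arrays were above them. Mvk lay nearest to the mean of the other 8 enzymes (root mean square difference 0.15 over the 9 arrays) and Pmvk farthest (0.66), followed by Msmo1 (0.44) and Fdft1 (0.41). Among 12967 other genes, the pattern over the 9 arrays most like the mean of the enzymes was that of Cln8 (root mean square difference 0.069), Arpc5 (0.069), U2af1 (0.077), Timm13 (0.080) and Pgap4 (0.080).

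Between the MYC groups no enzyme passed the test, nor did any of the 12976 genes tested (0% higher and 0% lower in each of the 3 comparisons). With limma at an unadjusted p under 0.05, again at the highest-mean probe sets, 623 genes differed between L-Myc and C-Myc. Between L-Myc and N-Myc it was 2466, and between C-Myc and N-Myc 543, and of the enzymes 0, 2 and 0. Those 2 were Idi1, at -0.53 in L-Myc against N-Myc (interval -1.04 to -0.02, adjusted p = 0.25), and Msmo1, at -0.82 (interval -1.60 to -0.04, adjusted p = 0.25). At other probe sets, the same comparison gave -0.59 for Idi1 at 1423804_a_at (interval -1.11 to -0.08). For Fdft1 at 1448130_at it gave -0.44 (interval -0.82 to -0.05). In order of group means, 5 of the 9 (Hmgcs1, Mvk, Idi1, Fdps and Msmo1) ran from N-Myc over C-Myc and L-Myc to preSC. The place of C-Myc in that order depended on which of its arrays was used. Without C-Myc 2, C-Myc was above N-Myc for Hmgcs1 (0.05), Idi1 (0.26), Fdps (0.04) and Msmo1 (0.20), but not for Mvk. Without C-Myc 1, L-Myc was above C-Myc for Hmgcs1 (0.24), Fdps (0.25) and Msmo1 (0.13), but not for Mvk or Idi1. At the highest-mean probe sets, the intervals between neighbours among the MYC groups in that order all held 0. For Msmo1 the interval was -1.15 to 0.40 for C-Myc against N-Myc and -1.22 to 0.33 for L-Myc against C-Myc. For Hmgcs1 it was -0.85 to 0.26 and -0.66 to 0.45. The narrowest were those of Mvk, -0.50 to 0.19 for C-Myc against N-Myc and -0.43 to 0.26 for L-Myc against C-Myc. Idi1 differed by -0.47 in L-Myc against C-Myc at 1451122_at (interval -0.98 to 0.04). At its other probe set, 1423804_a_at, the interval left out 0 (-0.67, interval -1.18 to -0.16, adjusted p = 0.86 in limma). The L-Myc and C-Myc arrays did not overlap at either probe set of Idi1. L-Myc is labelled polyA RNA and the other MYC groups total RNA, and group and label cannot be told apart there. Without C-Myc 2, Msmo1 was lower in L-Myc than in C-Myc by -1.02 (adjusted p = 0.043), where 2.74% of genes were higher and 1.91% lower in L-Myc, and the other 8 enzymes did not pass.

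The other steps of cholesterol synthesis were mixed as well. Of 12 genes on this list 9 were measured. With N-Myc 1 rose, Cyp51, the lanosterol demethylase (0.88, SE 0.23, adjusted p = 0.022), and 1 fell, Tm7sf2, a sterol reductase (-1.47, adjusted p = 0.014). Cyp51 at 1450646_at read 8.69, 8.71 and 8.57 in the preSC arrays, 9.08 and 8.90 in L-Myc 1 and 2, 9.58 and 8.89 in C-Myc 1 and 2, and 9.32 and 9.77 in N-Myc 1 and 2. As for Msmo1, C-Myc 1 and the N-Myc arrays were the highest. With C-Myc Sc5d, a sterol desaturase, rose (0.56) and Tm7sf2 fell (-1.35), and with L-Myc Ebp, a sterol isomerase, fell (-0.66). Without C-Myc 2 there were 5 higher with C-Myc (Cyp51, Dhcr7, Lss, Nsdhl and Sc5d) and 1 lower (Tm7sf2), and the median of the list went from 0.27 to 0.66. Sc5d was then 0.75 and Tm7sf2 -1.82. Without C-Myc 1 none was called with C-Myc. In N-Myc none was called without N-Myc 1 or N-Myc 2, and in L-Myc none without L-Myc 1, L-Myc 2, preSC 1 or preSC 3. The count of 2 was 1 in C-Myc without preSC 1 or preSC 2, and 1 in N-Myc without any 1 preSC array. The gene left was Tm7sf2 each time. The N-Myc call of Cyp51 was thus lost without any 1 array of that comparison.

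Of 13 genes of sterol sensing and uptake 11 were measured, and 4, 3 and 4 of them fell with L-Myc, C-Myc and N-Myc. With N-Myc Srebf2 rose (0.95, SE 0.25, adjusted p = 0.021), and 4 fell: Srebf1 (-1.70), which encodes the factor of fatty acid synthesis, Scap (-1.69), Npc1 (-1.25), which exports cholesterol from lysosomes, and Insig2 (-1.04). With C-Myc Srebf2 rose (0.81), and Npc1 (-1.44), Scap (-1.11) and Insig2 (-0.77) fell. Without C-Myc 2 these 4 were called too, at 1.14, -1.07, -1.37 and -1.12. With L-Myc 4 fell: Npc1 (-1.49), Mylip (-1.42), a ubiquitin ligase that limits sterol uptake, Srebf1 (-1.33) and Scap (-0.93). The medians of the list were -0.32, -0.26 and -0.34. Srebf2 read 8.68, 8.19 and 8.48 in preSC, 9.37 and 8.91 with L-Myc, 9.59 and 8.93 with C-Myc, and 9.38 and 9.43 with N-Myc, with all transduced arrays above preSC. Its call with C-Myc was lost without C-Myc 1 (0.48) or any 1 preSC array. Its call with N-Myc was lost without N-Myc 1, N-Myc 2 or preSC 2. Scap read 10.46, 10.23 and 10.57 in preSC and 8.53 to 9.69 in the transduced arrays. Insig1, a target of SREBP, differed by -0.04 with N-Myc, -0.22 with C-Myc and -0.34 with L-Myc, none of which passed. With C-Myc it was 0.10 without C-Myc 2 and fell by -0.54 (adjusted p = 0.047) without C-Myc 1. At 1417982_at, another probe set of Insig2, the differences were 0.06 with N-Myc, 0.34 with C-Myc and 0.62 with L-Myc, without passing. Probe sets disagreed also for Stard4, which was not called. All transduced arrays were below preSC at 1455011_at (9.22 to 9.34 against 9.48 to 9.56) and 1429240_at (8.75 to 9.04 against 9.24 to 9.43). They were above it at 1429239_a_at (8.21 to 8.83 against 7.04 to 7.28). With N-Myc the number called was 1 without N-Myc 1 and 2 without N-Myc 2, with C-Myc it was 2 without C-Myc 1 or any 1 preSC array and 4 without C-Myc 2, and with L-Myc it was 2 without L-Myc 1, preSC 1 or preSC 3.

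Of 6 genes of efflux and esterification 4 were measured, and Abcg1, a cholesterol exporter, fell in each group: by -1.19 with L-Myc, -1.40 with C-Myc and -1.51 with N-Myc. It read 9.84, 9.76 and 10.24 in preSC and 8.05 to 9.04 in the transduced arrays. The C-Myc difference was -1.90 without C-Myc 2. The call was lost without any 1 array of the L-Myc comparison, without C-Myc 1, and without N-Myc 1 or N-Myc 2.

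All 12 genes of fatty acid synthesis were measured. With N-Myc Elovl6 (1.17), an elongase, and Acly (0.85), which makes the acetyl-CoA used by both routes, rose, and Elovl5 (-1.59), Fads1 (-1.44), Fads2 (-1.35), Scd2 (-1.11) and Gpam (-1.02) fell. With C-Myc Elovl6 (1.29) and Acly (0.73) rose and Elovl5 fell (-0.80), and with L-Myc none passed. Without C-Myc 2 the C-Myc values of these 3 were 1.57, 0.82 and -1.21, all called. Elovl5, Fads1 and Fads2 lengthen or desaturate polyunsaturated fatty acids. Probe sets disagreed for Scd2, which rose by 1.13 with N-Myc at 1415823_at, for Gpam, which rose by 0.79 with N-Myc, 0.74 with C-Myc and 1.05 with L-Myc at the dim 1425834_a_at, and for Fads2, which at 1449325_at differed by 0.63 with N-Myc without passing and rose by 1.81 with L-Myc. All transduced arrays were above preSC for Scd2 at 1415823_at (9.58 to 10.50 against 7.97 to 9.06) and 1415824_at (6.09 to 7.42 against 5.09 to 5.40). At 1415822_at, on which Scd2 was called, they overlapped with preSC. Acly at 1425326_at was also higher in all of them (9.58 to 10.27 against 7.97 to 8.52). The C-Myc count of 3 was 7 without C-Myc 2 and 0 without C-Myc 1, preSC 1 or preSC 2, and the N-Myc count of 7 was 2 without N-Myc 1 or N-Myc 2. The L-Myc count of 0 was 1 without preSC 3.

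Of 12 genes of the other branches of mevalonate 11 were measured. Ggps1, which makes the geranylgeranyl group, rose in each group, by 0.76 with L-Myc, 0.96 with C-Myc and 0.99 with N-Myc (adjusted p = 0.0096, 0.0032 and 0.0026). It read 8.61, 8.52 and 8.34 in preSC and 9.18 to 9.60 in the transduced arrays, and C-Myc 1 and C-Myc 2 read 9.48 and 9.41. Nus1, a subunit of the enzyme that makes the dolichol chain, rose with C-Myc (0.58), a call lost without C-Myc 2 (0.61, adjusted p = 0.056) and without C-Myc 1 (0.55, adjusted p = 0.095). Other probe sets of Nus1 were higher in all transduced arrays than in preSC. These were 1420646_at (7.51 to 8.32 against 6.03 to 6.31), 1460563_at (9.34 to 9.89 against 8.40 to 8.72) and 1434304_s_at (8.79 to 9.29 against 8.16 to 8.38). At 1440478_at the arrays overlapped, and the dim 1419915_at, not tested, was lower (4.81 to 5.22 against 5.28 to 5.29). Rabggta, which prenylates Rab proteins, rose with N-Myc (1.21). Pggt1b, a geranylgeranyl transferase subunit, fell with C-Myc (-0.53) and N-Myc (-0.63). All transduced arrays were below preSC there, and also at 1438229_at (8.39 to 8.71 against 8.97 to 9.12) and 1429769_at (7.40 to 7.72 against 8.33 to 8.39). It rose with each group at its dimmest probe set, 1429770_at (0.62 with C-Myc, 0.72 with N-Myc and 0.80 with L-Myc). The C-Myc values without C-Myc 2 were 1.00 for Ggps1 and -0.52 for Pggt1b, both called. The medians of the list were -0.04 with L-Myc, -0.02 with C-Myc and 0.41 with N-Myc. Without L-Myc 2 no gene of the list was called in L-Myc. The C-Myc count of 3 was 5 without C-Myc 2, and the N-Myc count of 3 was 1 without N-Myc 2.

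**Figure D4:**
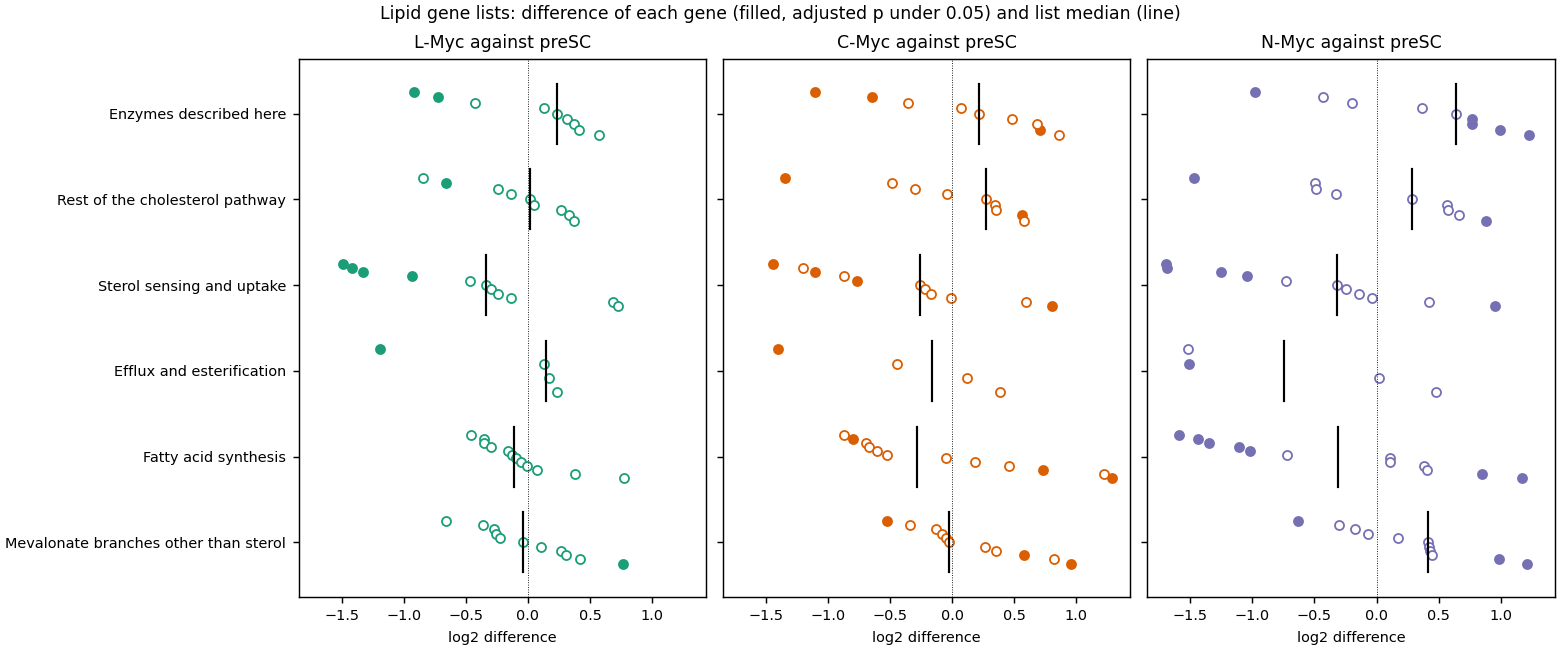
Log2 difference from preSC of each gene of 6 lists (point, filled where the adjusted p is under 0.05) and the list median (line), for L-Myc, C-Myc and N-Myc. The median of the enzymes described here is 0.64 with N-Myc, and that of sterol sensing and uptake lies below 0 in all 3 panels.

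The listed genes not counted as measured were not analysed here.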

How the data were processed

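RNA of 9 samples was read on Affymetrix Mouse430_2 arrays. The authors deposited log2 values, 1 per probe set and array, which come from affy's RMA under R 3.0.1, per the submitters' processing notes, with no affy version named there. RMA sets arrays to a common distribution, so a change of all transcripts one way would be lost. Array medians lay between 6.02 and 6.07, and no further scaling was done.

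Of 45101 probe sets, 34958 had 1 symbol in the platform annotation, 932 had several and 9211 were not listed. Probe sets other than the 64 control probe sets were tested if above the 40th percentile of an array (5.28 to 5.34) in at least 2 arrays, which left 29140, of which 19 of the 21 of the enzymes. The fit (limma 3.58.1, R 4.3.3: lmFit, eBayes) held all 9 arrays with group means and 5 residual degrees of freedom. Intervals are 95%. P-values are two-sided, adjusted by Benjamini-Hochberg over all probe sets tested within each of 6 comparisons, and called under 0.05. A gene was called on its probe set with the highest mean over the arrays.

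Named were the enzymes, all called genes of the pathway lists, and the 5 genes with the smallest root mean square difference from the mean pattern. The enzymes and lists were chosen with earlier results of these data known. The fit was tested on simulated data. Alternatives were other filters, scalings, probe set summaries, variance models, arrays in the fit, the replicate number as a block, and each array left out. Precision is limited by the few arrays per group.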

Additional observations from a re-analysis of the deposited data

How the results depend on the processing

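At the single probe sets of the enzymes, 1293 values were computed under the alternatives. Of these, 1213 stayed on the same side of the threshold, 59 lost the call, 21 gained it and 0 turned a called direction. Between transduced groups no probe set of the enzymes was called with all arrays, so no call was there to lose. The 1213 is thus not a measure of how well the calls against preSC held. Against preSC, with 1 array left out, 33 values with N-Myc, 10 with C-Myc and 6 with L-Myc lost the call. In the same fits 9 values with C-Myc gained it. A sign changed 47 times where neither value passed, 45 of them with 1 array left out and 38 between transduced groups. The number of enzymes called against preSC, with each array of the comparison left out in turn, ranged from 0 to 1 with L-Myc (2 with all arrays), from 1 to 5 with C-Myc (3) and from 0 to 4 with N-Myc (5). For L-Myc against C-Myc (0) it ranged from 0 to 1, the 1 being without C-Myc 2. The lone array left in a group is then assumed to vary like the others. With the mean of all probe sets of a gene, 1 enzyme was called in L-Myc (Pmvk), and in N-Myc Fdps, Idi1, Mvd and Mvk were called higher and Pmvk lower, so that Hmgcs1 and Msmo1 lost the call. With only the compared groups in the fit, 1 was called in C-Myc. Where arrays were centred on the median of the probe sets tested, 6 rose and 1 fell with N-Myc, Mvd and Mvk being added.

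With the replicate number as a block, 1 enzyme was called in L-Myc, 1 in C-Myc and 3 in N-Myc. The labels do not pair the arrays: the differences of replicate 2 from replicate 1 correlated between groups at -0.01 to 0.44, the highest between L-Myc and C-Myc.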
